A study of Mus musculus with 2 samples.

Results

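In newborn mouse lung, 326 stretches of the autosomes carried 10 or more EP300 peaks packed close together. They were found in the optimal set of reproducible EP300 peaks on chromosomes 1 to 19 by joining peaks separated by at most 12.5 kb and keeping the joined stretches with at least 10 peaks. The 43296 optimal peaks on these chromosomes formed 20378 such stretches in all, of which 11292 held 1 peak, 8760 held 2 to 9 peaks and 326 (1.60%) were dense regions. Peak positions and numbers chose the regions, so their peak numbers, lengths and summed signals are given as a description. The dense regions held 4519 peaks, or 10.4% of the peaks and 12.5% of the summed signal, on 15.4 Mb, or 0.626% of the length of these chromosomes.

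EP300 occupancy was measured by ChIP-seq with an antibody to EP300 in whole lung of B6NCrl mice at postnatal day 0. The series has 1 group of 2 libraries, biological replicates 1 and 2, and no treated or mutant group. The labels give both libraries the same donor and biosample record and no sex, so any spread between the 2 may reflect technique alone. How many animals gave the tissue was not stated. The peak lists gave no read counts, so the depth behind each value is unknown.

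EP300 is a histone acetyltransferase without sequence-specific DNA binding of its own. It is recruited to promoters and enhancers by transcription factors, acetylates histone H3 on lysine residues and is a widely used mark of active enhancers. Dense runs of enhancers, often called super-enhancers or stretch enhancers, are commonly found around genes that define a cell type and around genes that respond quickly to signals. At birth the lung fills with air, and its gas-exchange surface of flat alveolar type 1 cells, surfactant-making type 2 cells and capillary endothelium is exposed to high levels of glucocorticoid hormone.

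The sequences below show what lay under the peaks of dense regions at which a recognisable factor site was repeated or lay in the strongest peak. All are the plus strand of mm10 (GRCm38), read from the RefSeq assembly over the central 100 bp of a peak, around its summit. The first set comes from the Fkbp5 region, where 4 of 13 peaks held the motif of a glucocorticoid response element, the inverted repeat GNACANNNTGTNC bound by the glucocorticoid receptor and its relatives. Over all dense regions the motif lay in 2.15% of peaks, beside 2.17% of the other optimal peaks. It was absent from 249 of the 326 regions, so the windows shown were picked for holding it. Capitals mark this motif.

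Fkbp5 peak 1 (chr17:28513853-28513952): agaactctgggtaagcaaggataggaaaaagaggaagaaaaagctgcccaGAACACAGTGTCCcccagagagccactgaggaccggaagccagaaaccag
Fkbp5 peak 2 (chr17:28518108-28518207): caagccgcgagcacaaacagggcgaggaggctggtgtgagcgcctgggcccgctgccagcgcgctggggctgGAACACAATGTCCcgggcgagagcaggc
Fkbp5 peak 3 (chr17:28518976-28519075): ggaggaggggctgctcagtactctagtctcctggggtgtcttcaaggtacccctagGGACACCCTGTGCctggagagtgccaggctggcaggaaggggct
Fkbp5 peak 4 (chr17:28523115-28523214): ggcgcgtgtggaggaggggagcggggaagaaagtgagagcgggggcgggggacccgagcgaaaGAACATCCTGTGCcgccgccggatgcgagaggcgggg

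The first of these windows lay in an Fkbp5 intron, 2.55 kb from a transcription start site (TSS), and the other windows lay outside protein-coding genes at 0.634, 1.502 and 5.64 kb from a TSS of Fkbp5. Their peaks had signals of 107, 33.5, 46.7 and 83.9. The second set shows 3 of the 4 peaks of the Tns1 region with the same motif, again in capitals. All 3 lay in introns of Tns1.

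Tns1 peak 1 (chr1:74014744-74014843): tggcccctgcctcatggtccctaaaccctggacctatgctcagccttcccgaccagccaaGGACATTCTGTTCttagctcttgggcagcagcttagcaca
Tns1 peak 2 (chr1:74044618-74044717): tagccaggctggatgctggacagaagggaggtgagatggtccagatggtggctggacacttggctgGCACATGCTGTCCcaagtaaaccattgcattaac
Tns1 peak 3 (chr1:74047460-74047559): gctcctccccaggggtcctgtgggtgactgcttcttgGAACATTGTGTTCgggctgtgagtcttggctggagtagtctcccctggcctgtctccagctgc

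These Tns1 peaks had signals of 152, 59.6 and 92.8. The dense region inside Zbtb16, a zinc-finger factor gene and glucocorticoid target, held 5 such peaks, and outside the regions of Fkbp5, Tns1 and Zbtb16 none held more than 2. Tns1 and Zbtb16 are named here for these counts, which were seen first. The last set shows the strongest peak of 6 regions, each with a motif in capitals: GNACANNNTGTNC in the first 3 windows, beside TGACGTCA of a cAMP response element near Ptpn1 and TGANTCA of an AP-1 site at Rin3, TGTTTAC of a forkhead site with ACATTCC of a TEAD site at Sftpb, and ACATTCC at Gramd2 and Emp2. These windows were picked for holding a motif, and in 140 of the 326 regions the strongest peak held none of the 12 motifs searched. Several motifs are printed as their reverse complement, since both strands were searched.

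Strongest peak near Ptpn1 (chr2:167860691-167860790): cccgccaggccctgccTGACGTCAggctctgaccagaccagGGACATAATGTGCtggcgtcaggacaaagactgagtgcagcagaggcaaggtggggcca
Strongest peak at Rin3 (chr12:102328257-102328356): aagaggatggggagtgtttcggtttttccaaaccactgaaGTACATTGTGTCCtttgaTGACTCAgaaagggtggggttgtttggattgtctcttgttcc
Strongest peak near Cdkn2b (chr4:89422127-89422226): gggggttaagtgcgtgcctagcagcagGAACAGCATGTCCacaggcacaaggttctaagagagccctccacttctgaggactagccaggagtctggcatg
Strongest peak at Sftpb (chr6:72277178-72277277): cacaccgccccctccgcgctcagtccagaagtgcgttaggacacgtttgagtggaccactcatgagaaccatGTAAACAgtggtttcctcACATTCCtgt
Strongest peak at Gramd2 (chr9:59696517-59696616): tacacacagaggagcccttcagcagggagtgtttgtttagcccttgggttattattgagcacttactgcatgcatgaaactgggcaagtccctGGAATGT
Strongest peak at Emp2 (chr16:10351472-10351571): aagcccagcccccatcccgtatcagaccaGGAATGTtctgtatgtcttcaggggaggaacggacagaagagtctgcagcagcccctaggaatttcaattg

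The peaks near Ptpn1 and Cdkn2b and those at Sftpb and Emp2 were intergenic, at 71.6, 111, 27.4 and 37.6 kb from the nearest protein-coding TSS. Intergenic here means outside protein-coding genes, so such a peak can lie in a noncoding RNA gene. The peaks at Rin3 and Gramd2 were intronic. A match is a string of letters and no measurement of which protein was bound.

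Most dense regions were modest in size. The number of peaks ran from 10 to 50 with a median of 12, and 3 in 4 regions had at most 15. Their length ran from 10.7 to 186 kb with a median of 43.6 kb, and peaks covered a median of 11.4% of it. Neighbouring summits lay a median of 2.66 kb apart. The summed signal, in the authors' arbitrary units for each peak, ran from 348 to 4761 with a median of 896. Across the 326 regions the rank correlation (Spearman's rho) was 0.60 between peak number and length, 0.64 between peak number and summed signal and 0.43 between length and summed signal. The mean signal per peak hardly followed the number of peaks (rho 0.06) but followed the sum (rho 0.77). These are descriptions across regions of the same peak set, in which sum and mean share the same values.

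**Figure D1:**
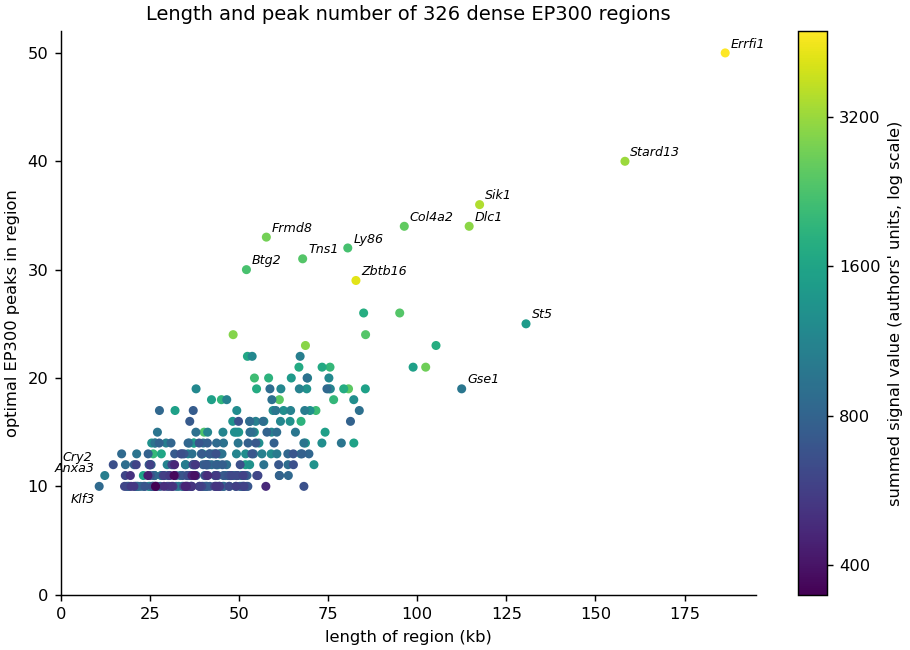
Number of optimal EP300 peaks (vertical axis) against length in kb (horizontal axis) for each of the 326 dense regions, 1 point per region, coloured by summed signal on a log scale, with names of the regions with most peaks, of the longest and of the 3 densest. Most regions sit below 20 peaks and 80 kb, and Errfi1 with 50 peaks over 186 kb stands apart at the upper right.

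The 10 highest regions by summed signal lay at Errfi1 (4761), Zbtb16 (4228), Sik1 (3503), Stard13 (3213), Dlc1 (3014), Cttnbp2nl (3005), Bcl2l1 (2928), Frmd8 (2725), 4930432M17Rik (2680) and Col4a2 (2517). They held 9.44% of the summed signal of all dense regions. The regions named for Zbtb16, Frmd8 and Col4a2 held no protein-coding TSS. Their names give a position, and noncoding RNA genes were not used for naming. The other 316 regions had 10 to 32 peaks, lengths of up to 131 kb and sums of 348 to 2465. From rank 11 to 40 the sums fell from 2465 to 1619, with medians of 19 peaks and 64.0 kb. Ranks 41 to 100 ended at 1104 with medians of 15 peaks and 51.2 kb, the regions from there to rank 200 ended at 813 with 12 peaks and 43.0 kb, and the remaining regions ended at 348 with 11 peaks and 38.9 kb. Sums thus declined without a gap after the 10 highest.

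Of 20 listed markers of alveolar type 1 cells, 3 lay by their TSS in regions of ranks 11 to 40. Hopx, a homeodomain-only protein and marker of alveolar type 1 cells, lay in the region of rank 11 (chr5:77085782-77166475), with 19 peaks over 80.7 kb and a sum of 2465. In replicate 1 the sum was 1426 from 19 peaks, and in replicate 2 it was 1196 from 24 peaks. Its strongest peak (signal 489) was intergenic, 36.1 kb from the Hopx TSS, and 14 of the 19 peaks were intergenic. Clic5, a chloride intracellular channel protein also used as a type 1 marker, filled a 71.5 kb region of rank 21 with 17 peaks, 16 of them in introns. Its sums were 1255 in replicate 1 and 1052 in replicate 2. Emp2, an epithelial membrane protein of type 1 cells, ranked 34 with 21 peaks over 66.8 kb and sums of 961 and 665 in replicates 1 and 2. At Gramd2, rank 16, 15 peaks over 40.2 kb gave sums of 1382 and 982. All 4 regions had their strongest peak outside the promoter, but a promoter held it in only 7.67% of the 326 dense regions. At Gramd2 a peak 0.299 kb from a TSS had a signal of 384, close to the strongest at 394.

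Sftpb encodes surfactant protein B, without which newborns cannot breathe. Its region had rank 27 (chr6:72261148-72319410), with 20 peaks over 58.3 kb and sums of 1027 in replicate 1 and 849 in replicate 2. Sftpc, for surfactant protein C, lay in a far smaller region of rank 287 with 10 peaks over 17.8 kb and sums of 319 and 323. The Sftpc region also held the start of Bmp1, a procollagen-cleaving protease. The 2 surfactant regions therefore sat in different parts of the ranking in both libraries.

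Tns1, Nedd9, Mical2 and Mrvi1 gave 4 further regions of ranks 11 to 40. Each was over 60 kb long, among ranks whose median length was 64.0 kb. Tns1, for the focal adhesion protein tensin, had rank 15 (chr1:73986585-74054406), and all its 31 peaks were intronic over 67.8 kb of the gene. The sum was 1364 in replicate 1 and 917 in replicate 2. Nedd9, a docking protein of focal adhesions, had 26 peaks over 84.9 kb with sums of 1006 and 751. Mical2, which oxidises actin, had 23 peaks over 105 kb (sums of 1017 and 727), and Mrvi1 had 18 peaks over 76.5 kb (sums of 1153 and 836). In all of these the strongest peak held less than 15% of the region's sum, so that signal was spread over many peaks.

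Further regions of ranks 11 to 40 held starts of genes with other roles. Btg2, an antiproliferative immediate early gene, had 30 peaks in 52.0 kb (chr1:134055029-134107067), of which 28 were intergenic, with sums of 1338 in replicate 1 and 963 in replicate 2. Mcl1, an anti-apoptotic relative of Bcl2, shared a region with Adamtsl4 (20 peaks, sums of 1314 and 1041). Txnip, a thioredoxin-binding protein and sensor of glucose, shared a region with Gm16253. That region had 13 peaks in only 25.9 kb, 5 of them in promoters of either gene, with sums of 1186 and 948. Dusp6, a phosphatase that switches off ERK downstream of FGF signals, had 21 peaks over 73.3 kb with sums of 1048 and 763.

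Ddx47, an RNA helicase gene, reached rank 19 with just 11 peaks in 26.3 kb (sums of 1195 and 928). Klf13, a zinc-finger factor, shared its region with E030018B13Rik, whose strongest peak of signal 527 held 30.6% of the sum (sums of 1017 and 854). The tight junction genes Cldn3 and Cldn4 shared a region with Abhd11 in which 6 of 19 peaks were promoter peaks (sums of 1085 and 768). Rin3, a guanine nucleotide exchange factor for Rab5, had 22 peaks with sums of 939 and 587, the Golgi gene Ergic1 had 15 with 870 and 676, and Atp6v0a4, a proton pump subunit, had 13 with 929 and 713. Vmp1, an autophagy gene, had a region of 21 peaks overlapping its body, with none at a promoter (sums of 1146 and 936). Akap2, an anchoring protein for protein kinase A, had 14 peaks and sums of 916 and 725. Nedd4l and Synpo, for a ubiquitin ligase and an actin-associated protein, had 26 and 19 peaks. All 30 regions of ranks 11 to 40 had a larger sum in replicate 1 than in replicate 2, as had 318 of all 326.

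**Figure D2:**
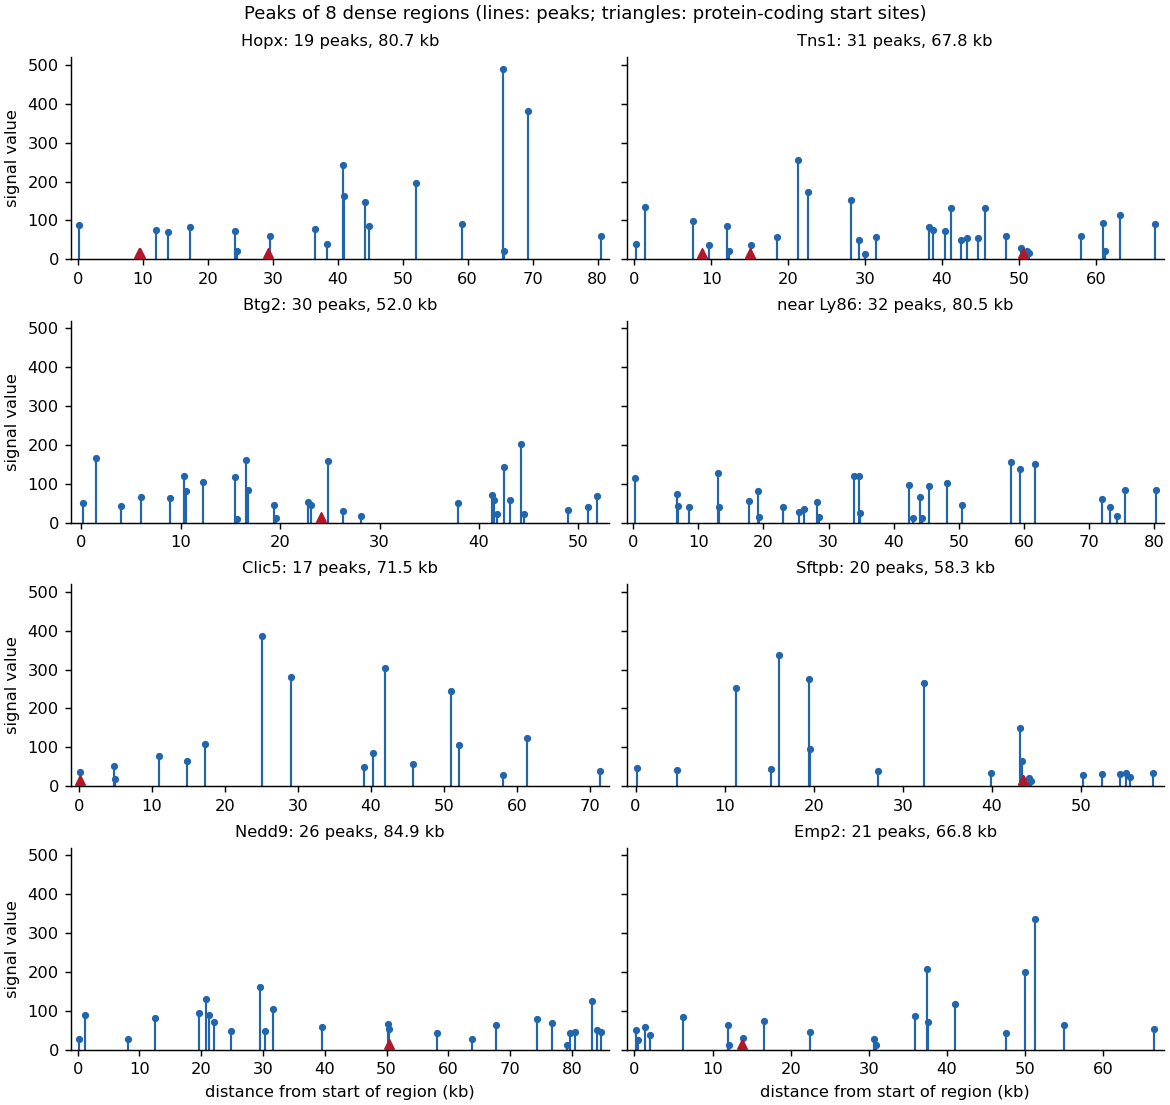
Position of each optimal peak's summit in kb from the start of the region (horizontal axis) and its signal value (vertical axis, same scale in all panels) for 8 regions of ranks 11 to 34, with triangles at protein-coding start sites. Signal rises to over 300 at 2 peaks each at Hopx and Clic5 and at 1 peak each at Sftpb and Emp2, all away from the start sites, whereas the 32 peaks near Ly86 and the 26 of Nedd9 all stay below 170.

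Of the ranks 11 to 40, 7 overlapped no protein-coding gene. The strongest lay 41.3 kb from Tmem100, a membrane protein of endothelium downstream of BMP signals, with 18 intergenic peaks over 61.3 kb and sums of 1289 in replicate 1 and 1222 in replicate 2. Another, 29.6 kb from Ptpn1, a tyrosine phosphatase, had 24 intergenic peaks over 85.5 kb with sums of 1439 and 1050. The next in rank lay 88.9 kb from Ly86, an accessory protein of a Toll-like receptor relative, and had 32 intergenic peaks over 80.5 kb with sums of 1248 and 1051. This last region was the most even of all 326: its strongest peak held 7.16% of the sum. It overlapped 8 annotated long noncoding RNA (lncRNA) genes.

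A further region of this kind lay 43.0 kb from Vegfa, the main growth factor of endothelium, with 18 peaks in 45.0 kb (sums of 1133 and 759). One more lay 15.5 kb from the zinc-finger gene Klf6 with 12 peaks (sums of 1034 and 724). The region nearest to Cdkn2b, an inhibitor of cyclin-dependent kinases, was 111 kb away and reached rank 35 with only 10 peaks in 25.5 kb (sums of 936 and 795). The nearest gene is a position and not a measured link.

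At the dense end stood short regions at the start of a single gene. The densest was Klf3, for a transcriptional repressor, with 10 peaks in 10.7 kb, or 9.34 peaks per 10 kb against a median of 2.94. It was followed by Anxa3 (an annexin, 11 peaks in 12.3 kb), Cry2 (12 in 14.7 kb), Fkbp5 (13 in 17.0 kb) and Hes1, a target of Notch signals (12 in 18.1 kb). In replicate 1 these 5 regions held 9, 9, 10, 11 and 10 peaks and in replicate 2 they held 9, 9, 9, 11 and 11. Peaks covered 33.1% of the Klf3 region and 33.9% of the Cry2 region. All 5 had a promoter peak, and 4 of the 13 at Fkbp5 were promoter peaks. In this peak set some neighbours overlap: 27.7% of dense peaks overlapped another peak, against 19.1% of all other peaks, and with overlapping peaks merged into 1, 220 of the 326 regions still had 10 or more.

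The longest regions beyond the 10 highest were St5 with Rpl27a (25 peaks over 131 kb, rank 54), Gse1 with Fam92b (19 peaks over 112 kb, rank 129), Mical2 and Zfp608 (21 peaks over 98.8 kb, rank 46). Their sums were 1444, 977, 1777 and 1526, so length alone did not place a region high. In replicate 1 the sums of St5, Gse1 and Zfp608 were 798, 564 and 873, and in replicate 2 they were 601, 371 and 687.

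Some dense regions came in neighbouring pairs or chains. Another dense region lay within 100 kb of 62 of the 326, and the closest pair, both at Mbnl2, were 13.8 kb apart, just past the stitching distance. Nearest to Cebpb, for a C/EBP factor, a region of 15 peaks lay 15.6 kb from the region near Ptpn1, which lay 17.3 kb from a region of 19 peaks at Ptpn1 itself. That one lay 77.6 kb from a region of 12 peaks at Pard6b, so that 4 dense regions with 70 peaks followed each other. Tns1, Tjp1 and Nedd9 each had a pair of dense regions, and Col4a1 (17 peaks) lay 17.8 kb from Col4a2 (34 peaks), its partner collagen gene of basement membranes. Cebpb, Mbnl2, Tjp1 and Pard6b were named for these distances after their values were seen.

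Both libraries showed the regions, with different peak numbers in many of them. In the strongest 43988 peaks of each library, 4168 (9.62%) of replicate 1 and 4066 (9.39%) of replicate 2 on chromosomes 1 to 19 lay in the dense regions. At least 10 peaks were found in 238 regions in replicate 1 and in 231 in replicate 2, in 200 in both and in 57 in neither. No region had fewer than 5 in either. The libraries are not independent of the regions, because both entered the optimal set. The median sum was 518 in replicate 1 and 394 in replicate 2, each on its own library's signal scale, and the median log2 ratio of replicate 2 over replicate 1 was −0.41. After this shift was removed, the ratios had an SD of 0.20, 325 of the 326 regions agreed within 1.5-fold, and none differed over 2-fold. The rank correlation of sums between libraries was 0.93 and that of peak numbers 0.78 (326 regions, same regions in both).

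Of the 40 highest regions, 39 were among the 40 highest in replicate 1 and 36 in replicate 2. Large shifted ratios occurred at several regions, which were named for them after their values were seen. Dtx4 with Mpeg1, a macrophage gene, was relatively higher in replicate 2 (sums of 246 and 283, shifted log2 ratio 0.61). Mis18a (439 and 224, −0.56) and Ski, a repressor of TGF-beta signals (633 and 333, −0.52), were relatively higher in replicate 1. With 2 libraries and 1 group, no test of a difference was possible.

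**Figure D3:**
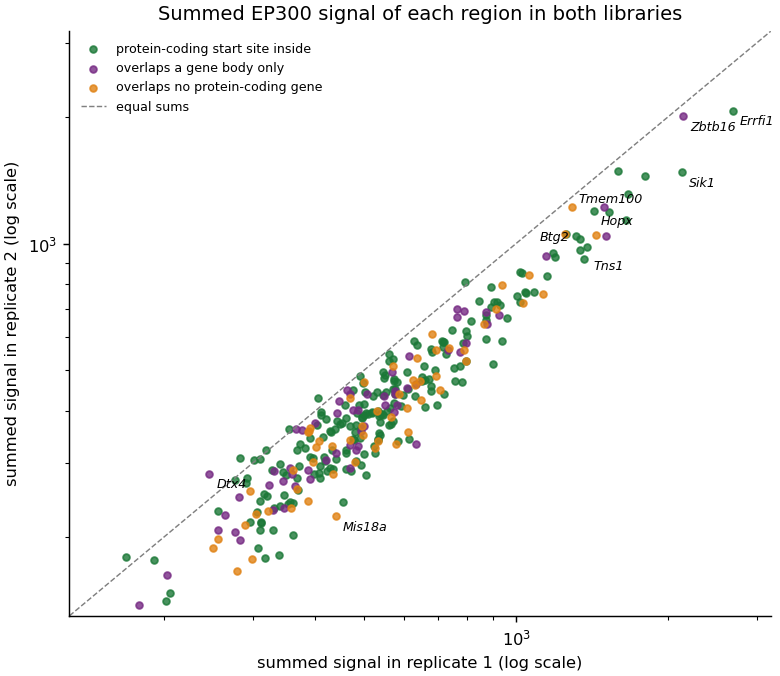
Summed signal of each of the 326 dense regions in the strongest 43988 peaks of replicate 1 (horizontal axis) and replicate 2 (vertical axis), both on log scales and in each library's own signal units, coloured by relation to protein-coding genes; the dashed line marks equal sums. The points follow the diagonal and nearly all lie below the line, with Errfi1 and Zbtb16 at the top in both libraries.

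A protein-coding TSS lay inside 209 regions (64.1%). Of the others, 60 overlapped a gene body only and 57 overlapped no protein-coding gene. Among these 57, the distance to the nearest TSS ran from 0.207 to 303 kb with a median of 31.0 kb. A lncRNA gene was overlapped by 38 of the 57 and by 141 of all 326 dense regions. The share among runs below the threshold was not computed. Among the 209 regions with a TSS inside, most had a single gene: 153 held 1 protein-coding TSS gene, 37 held 2, 13 held 3, 4 held 4 and 2 held 5. The other 117 regions held none. The gene-rich ones were those of Cnn2 (with Polr2e, Tmem259, Abca7 and Arhgap45), Cirbp (with Midn, 1600002K03Rik, Atp5d and Cbarp), Icam1 (with Mrpl4, S1pr2 and Icam4), Slc25a47 (with Wars, Slc25a29 and Wdr25) and Angptl4 (with Kank3, Ndufa7 and Rps28). None of these 5 was among the 40 highest, and their sums ran from 720 (Cirbp) to 1206 (Icam1).

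Promoters carried a smaller share of the peaks in dense regions than elsewhere. A peak summit at most 1 kb from the TSS of a protein-coding gene was found for 462 dense peaks (10.2%) and for 13.6% of the other optimal peaks. In replicate 1 the shares were 9.76% and 14.1%, and in replicate 2 they were 9.67% and 13.6%. The difference had the same direction in each tercile of signal: 11.9% against 15.7% in the weakest, 9.98% against 14.1% in the middle and 9.16% against 10.9% in the strongest. Introns of protein-coding genes held 53.0% of dense peaks and 47.5% of the others. Intergenic sequence, here all sequence outside protein-coding genes, held 43.2% and 47.5%. Even where a TSS lay inside, just 15.3% of the 2985 peaks were promoter peaks, and 29 such regions had none. The strongest peak of a region lay in a promoter in 25 of 326 regions (7.67%). By annotation alone it lay in an intron in 173 regions, in intergenic sequence in 147, in an untranslated exon part in 5 and in a coding exon in 1. This share is not independent of the rule, which counts closely spaced peaks.

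Dense regions held a large part of the strongest peaks. They contained 44 of the 100 strongest peaks, 28.8% of the 500 strongest, 24.3% of the 1000 strongest and 16.6% of the 5000 strongest, against 10.4% of all peaks. The median peak was only slightly stronger inside (53.7) than outside (48.2). The strongest peak held a median of 20.2% of a region's sum, and the share reached 50.2% at Ccnd3 and Taf8, the region with the most uneven signal (named after its value was seen).

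The genes with a TSS inside numbered 289, or 1.39% of the 20807 protein-coding genes on these chromosomes, and 231 of them had a promoter peak. The last count follows in part from the rule, which picks stretches rich in peaks. Its share over all protein-coding genes was not computed. The gene lists and their members were chosen with earlier results of these data known, so their shares are a description only. Against the background share of 1.39%, 4 of 23 gene lists had 25% or more of their genes inside. Among glucocorticoid-responsive genes it was 6 of 19: the EGF receptor inhibitor Errfi1, the NF-kappaB inhibitor Nfkbia, the lipase inhibitor Angptl4, the MAP kinase phosphatase Dusp1, the receptor co-chaperone Fkbp5 and the factor Klf9. Among extracellular matrix and adhesion genes it was 6 of 22, with Tns1, Nedd9, the protease inhibitor Timp3, the basement membrane genes Col4a1 and Lama5, and zyxin (Zyx). It was 6 of 23 for immediate early genes, with Btg2, Ier3, Fos, Ier2, Nr4a1 and Junb. It was 5 of 20 for alveolar type 1 markers, with Hopx, Clic5, Emp2, the anchoring protein Akap5 and caveolin 2 (Cav2).

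The members of these 4 lists sat throughout the ranking. Nfkbia had 20 peaks (sums of 842 in replicate 1 and 729 in replicate 2), Angptl4 16 (573 and 472), Dusp1 14 (542 and 393), Fkbp5 13 (503 and 396) and Klf9 10 (491 and 344). These 5 regions had ranks of 51 to 192, below Errfi1 at rank 1. Among the immediate early genes, Fos had 14 peaks (698 and 413), Ier3 13 (718 and 438), Nr4a1 13 (526 and 317), Ier2 10 (479 and 355) and Junb 10 (419 and 382), and Btg2 was the only one with a sum over 1000 in replicate 1. Of the adhesion genes, Timp3 had 12 peaks (796 and 619), Lama5 20 (756 and 470), Col4a1 17 (715 and 582) and Zyx 11 (354 and 361). Akap5, which shares its region with Mthfd1, had 10 peaks (635 and 574), and Cav2 also had 10 (349 and 281).

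Lists with fewer members inside included lung endothelial markers (3 of 22: Egfl7, Esam and endoglin, Eng), alveolar type 2 markers (2 of 18: Sftpb and Sftpc), circadian clock genes (2 of 20: the repressors Nr1d1 and Cry2), TGF-beta and BMP genes (2 of 22: Id1 and the inhibitor Smad7), FGF and receptor tyrosine kinase genes (2 of 23: Dusp6 and Fgf1), airway markers (1 of 16: Scgb1a1 of club cells) and Hippo and YAP genes (1 of 20: the RhoGAP gene Dlc1). The Egfl7 region had 14 peaks with sums of 816 and 654, that of Scgb1a1 had 19 with 873 and 657, and that of Nr1d1, shared with the thyroid hormone receptor gene Thra, had 15 with 652 and 471. Esam had 10 peaks (368 and 322), Eng 10 (454 and 242), Id1 12 (499 and 390), Smad7 13 (460 and 291) and Fgf1 11 (631 and 435).

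None of the genes on 12 lists had a TSS inside: 20 fibroblast, 16 smooth muscle and pericyte, 10 mesothelial, 16 macrophage, 16 lymphocyte and 9 erythroid markers, 32 lung transcription factors, 19 hypoxia genes and 25 ribosomal protein genes (a list without Rps28 and Rpl27a, which had a TSS inside), and the markers of tissues other than lung (15 neuronal, 14 hepatocyte and 14 cardiomyocyte genes). At the background share, fewer than 1 gene would be found in any of these lists, so a 0 says little of any of them alone. By overlap of the gene body, whose background is 1.86%, the glucocorticoid list rose to 8 of 19 with Ddit4 and Zbtb16, the adhesion list to 8 of 22 with Col4a2 and Lamc1, and the endothelial list to 5 of 22 with Erg and Pecam1. The alveolar type 1 list rose to 6 of 20 with Lmo7 and the TGF-beta and BMP list to 3 of 22 with Tgfbr3. The FGF and receptor tyrosine kinase list rose to 3 of 23 with Fgfr2 and the clock list to 3 of 20 with Tef. Fbln5 of the fibroblast list, Mpeg1 of the macrophage list and Nfib of the lung factor list overlapped a region in the same way. The genes added by their bodies were named after their values were seen. Long genes can overlap regions more easily than short ones. In whole tissue, EP300 signal of a cell type rises with its share of cells as well as with occupancy per cell, and these cannot be told apart.

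**Figure D4:**
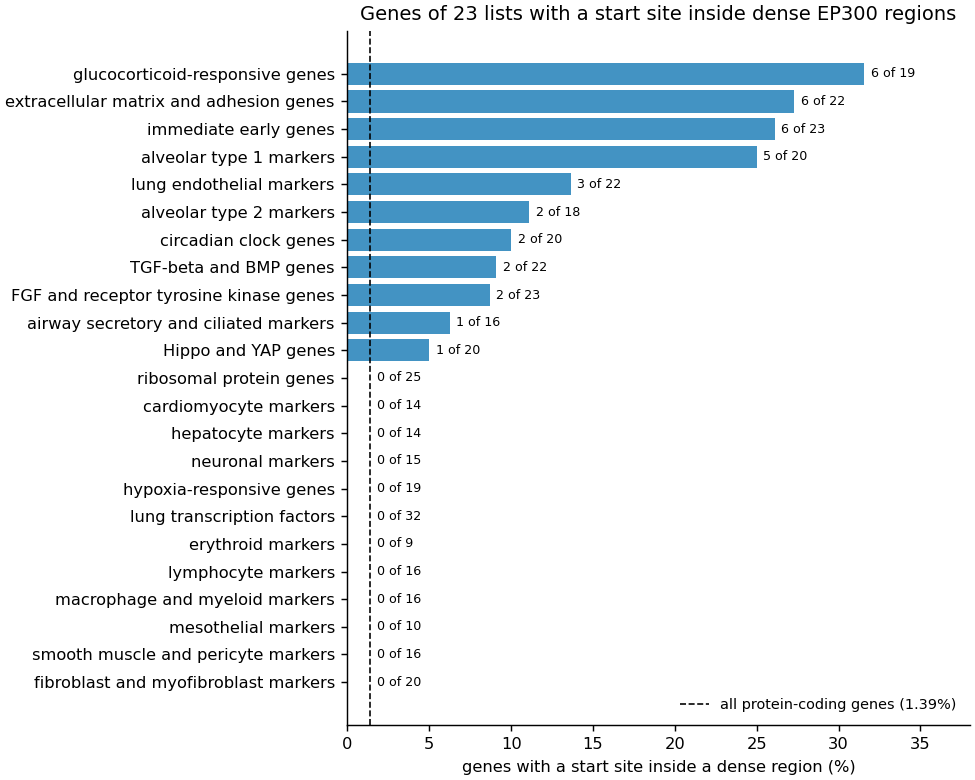
Percent of the matched genes of each of 23 lists with a transcription start site inside a dense region (bars, with counts) beside the share of all protein-coding genes on chromosomes 1 to 19 (dashed line, 1.39%). The glucocorticoid, matrix and adhesion, immediate early and alveolar type 1 lists stand at 25% or more, and 12 lists have no gene inside. The lists were chosen with earlier results of these data known.

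The 12 motifs were searched on both strands of the central 100 bp of each peak, and their shares in dense and other peaks are given side by side. The glucocorticoid motif lay in 97 of 4519 dense peaks (2.15%), in 2.17% of the other peaks and in 0.188% of windows 500 bp away from the dense peaks. Per library, the dense and other shares were 2.38% and 2.18% in replicate 1 and 2.24% and 1.97% in replicate 2. So the motif was concentrated at summits, but the dense regions did not stand apart from other peaks by more than 0.263 percentage points in the optimal set or in either library. The 97 peaks lay in 77 regions, and 249 regions had none.

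AP-1 (TGANTCA, 7.57% of dense and 7.68% of other peaks), ETS (CAGGAAG, 10.4% and 10.4%), C/EBP (TTGNGCAA, 3.10% and 3.16%), STAT (TTCCNGGAA, 1.53% and 1.54%) and KLF and SP sites (GGGCGGGG, 1.37% and 1.33%) were likewise close. Forkhead sites were less frequent in dense peaks (TGTTTAC, 4.38% against 5.42%), with 4.08% against 5.42% in replicate 1 and 4.50% against 5.25% in replicate 2. Sites of GATA factors (AGATAA, 7.28% against 8.42%), NFI (TTGGCA, 8.23% against 9.19%) and NKX2 sites (CACTTGA, 2.63% against 3.19%) were also lower, the last hardly so in replicate 2 (3.05% against 3.07%). The GATA shares in replicates 1 and 2 were 7.41% and 7.26% in dense and 8.32% and 8.43% in other peaks. TEAD sites (ACATTCC) were slightly more frequent in dense peaks (5.71% against 5.28%), as were cAMP response elements (TGACGTCA, 0.642% against 0.382%), the latter in 25 regions. In the middle tercile of signal the cAMP response element had the opposite order, 0.152% against 0.343%. Both had the same direction in each library, with TEAD at 6.00% against 5.31% in replicate 1 and 5.93% against 4.98% in replicate 2. No test was made, since peaks of 1 region are not replicates and 2 libraries against 2 cannot give a p below 0.333.

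**Figure D5:**
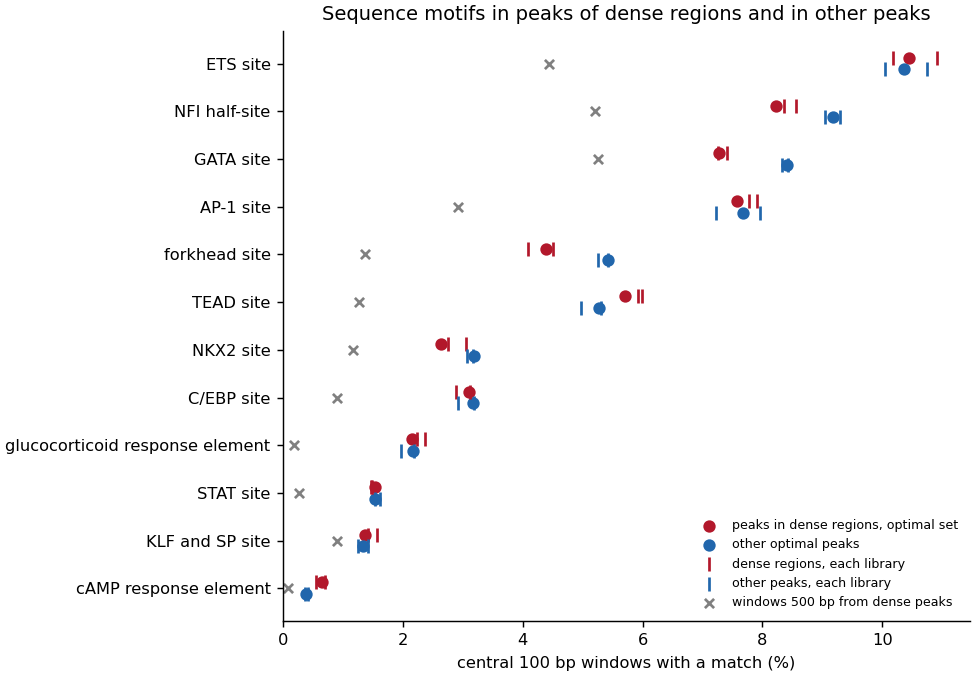
Percent of central 100 bp windows with each of 12 motifs (horizontal axis) in optimal peaks inside dense regions (red points), in other optimal peaks (blue points), in each library's strongest peaks (ticks of the same colours) and in windows 500 bp away from the dense peaks (grey crosses). Red and blue points lie right of the crosses for all 12 motifs, and forkhead (4.38% against 5.42%) and GATA sites (7.28% against 8.42%) show red left of blue.

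Among strong peaks, TEAD sites were more frequent inside dense regions than outside. A TEAD site, the DNA element through which YAP and TAZ act, lay in 8.35% of dense and 7.16% of other peaks in the strongest tercile and in 9.73% of 997 and 7.99% of 5510 peaks with signal over 100. The gap was wider over 200, at 16.4% of 262 dense and 8.91% of 808 other peaks, and over 300 it was 17.6% of 85 and 11.04% of 163. Among the 1000 strongest peaks of each library the shares were 13.5% of 245 dense and 7.95% of 755 other peaks in replicate 1, and 18.1% of 243 and 7.53% of 757 in replicate 2. In the weakest tercile the order was the opposite, 2.72% in dense and 3.78% in other peaks. The glucocorticoid motif rose with signal in both classes, from 0.734% of dense and 1.15% of other peaks in the weakest tercile to 14.1% and 12.5% over 200 and to 27.1% of 85 and 22.1% of 163 over 300. In the 1000 strongest, it reached 14.7% of dense and 11.7% of other peaks in replicate 1, and 13.99% and 11.4% in replicate 2. These signal limits and the strongest 1000 were chosen after the shares by tercile had been seen.

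Each region has 1 strongest peak. An ETS site lay in this peak in 45 regions (13.8%), a TEAD site in 38 (11.7%) and the glucocorticoid motif in 31 (9.51%). GATA sites lay there in 25 (7.67%), AP-1 in 22 (6.75%), NFI in 20 (6.13%), forkhead in 19 (5.83%) and C/EBP in 17 (5.21%). NKX2 sites lay in 9 (2.76%), cAMP response elements in 7 (2.15%), STAT sites in 6 (1.84%) and KLF and SP sites in 4 (1.23%). None of the 12 motifs lay there in 140. At all signals, none lay in 55.7% of dense peaks and 54.0% of other peaks. These peaks were picked for signal. Other peaks of the strongest tercile held ETS in 13.3%, TEAD in 7.16% and the glucocorticoid motif in 3.95%. They held AP-1 in 8.95%, forkhead in 6.99% and the cAMP response element in 0.508%. For the remaining motifs only the shares of other peaks at all signals were available. These were GATA 8.42%, NFI 9.19%, C/EBP 3.16%, NKX2 3.19%, STAT 1.54% and KLF and SP 1.33%. Over a signal of 200, other peaks held TEAD in 8.91% and the glucocorticoid motif in 12.5%. In the windows printed above, the strongest peak near Ptpn1 held both a glucocorticoid motif and a cAMP response element, the only dense peak with this pair. A forkhead and a TEAD site stood side by side in the strongest peak at Sftpb.

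The threshold of 10 peaks fell within a smooth decline. There were 73 regions of exactly 10 peaks (median 35.2 kb, sum 702) and 119 runs of exactly 9 peaks (median 30.8 kb, sum 581). Just inside, the highest sums were those near Cdkn2b (1700), in Lmo7 (1448), a type 1 cell marker, and at Akap5 with Mthfd1 (1235). Just outside were the clock gene Per2 (1271), a second run in the body of Fkbp5 (1258) and a run near Ddit4 (1218), which encodes an mTOR inhibitor. Runs left out by 1 peak could therefore have a higher sum than the median dense region (896).

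Dense regions were unevenly spread over chromosomes. Chromosome 19 had the most per length, 20 regions or 32.6 per 100 Mb, and 18.7% of its peaks lay in them. Chromosome 14 had the fewest, 10 regions or 8.01 per 100 Mb, and chromosome 15 had the smallest share of peaks inside, 6.82%. Per 1000 protein-coding genes the number ran from 10.4 on chromosome 7 to 34.2 on chromosome 12.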

How the data were processed

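EP300 ChIP-seq peaks of 2 newborn lung libraries were analysed. Per the deposited notes, the authors mapped reads to mm10 and called peaks per library and for the pool of both. From these they derived optimal (43988 peaks) and conservative (42473) sets by the irreproducible discovery rate. Aligner and caller: not given in the sources used here. Each peak's signal value is as deposited by the authors, on a scale the notes do not state. Depth is unknown.

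Optimal peaks on chromosomes 1 to 19 (692 others left out) were joined over gaps of at most 12.5 kb, and runs of 10 or more peaks were kept. Libraries (300000 peaks each) were represented by their strongest 43988 peaks. Gene models came from GENCODE vM21 (GRCm38), and a gene was inside when a TSS of it was. Motifs were searched by exact letters in the central 100 bp and 500 bp away, and a window could hold several. Gene lists (23, with 434 symbols, 428 matched) and motifs were written by hand. The members and lists were chosen with earlier results of these data known. Named genes were those of ranks 11 to 40 by summed signal, the 10 with most peaks, the 10 longest, the 5 densest, the 5 highest without a TSS inside, the 5 with most TSSs, list members inside (at most 6 per list), and the 3 highest runs of 10 and of 9 peaks. Of the 10 highest, the name and sum were to be given, and more only where another item of this rule named them. No test was made, as there is 1 group. Scripts were tested on simulated peaks (Python 3.11.15, pandas 2.3.3, pysam 0.24.0). A few regions and sequences that meet this rule are not reported here.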

Additional observations from a re-analysis of the deposited data

Results flagged for a closer look

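The rule covered chromosomes 1 to 19. Outside it, the X chromosome held 1 further run of 10 or more peaks, which no comparison above used. It lay at Tsc22d3, the gene of the glucocorticoid-induced leucine zipper, and had 20 peaks over 76.1 kb, a summed signal of 2163 and a strongest peak of 280. Tsc22d3 is a glucocorticoid-responsive gene and was on that list, but was not counted there because of its chromosome.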

How the results depend on the processing

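The number of dense regions depended on the rule: 326 became 57 with a gap of 5 kb, 738 with 25 kb, 612 with 8 or more peaks, 92 with 15 or more and 51 from the stronger 50% of peaks. With other sets it was 298 (conservative), 220 (overlapping peaks merged) and 309 (gaps between summits), and 323 to 340 from 1 library alone. Similar counts did not mean the same regions: 65.95% of the 326 were found again in the conservative set, which shared 80.1% of the optimal peaks, 68.4% without replicate 1 and 73.3% without replicate 2. Promoter peaks made up 7.04% of dense peaks within 500 bp of a TSS and 14.9% within 2 kb, against 10.4% and 17.4% of other peaks, and 9.67% to 9.76% from 1 library. The glucocorticoid motif share was 2.77% in the central 200 bp (2.75% in other peaks), 2.37% in the conservative set and 2.24% to 2.38% from 1 library. Of 23 gene list counts, 22 stayed within 1.5 times in the conservative set and 19 by gene body. Lists with 0 genes in both settings counted as unchanged, as did shifts between 2 and 3 genes. These numbers therefore say little about the stability of lists with few or no genes inside. No paired analysis was possible because there is 1 group. The cause of these shifts was not tested. With no read counts, no limit from depth could be given.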
